A study of Mus musculus with 6 samples.

Results

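The dystrophin-glycoprotein complex ties the actin cytoskeleton of a muscle fibre to the extracellular matrix. Members were the genes whose symbol in the deposited count matrix is *Dmd*, *Utrn*, *Dag1*, *Sgca*, *Sgcb*, *Sgcd*, *Sntb1* or *Dtna*, which gave 8 of 55401 rows, 1 for each gene. The 6 RNA-seq libraries were made from C2C12, a line of mouse muscle precursors that form multinucleated myotubes once serum is lowered, taken 2 d post differentiation: 3 of control cells, labelled wild type, and 3 of *Phf2* KO cells. *Phf2* encodes a demethylase of dimethylated histone H3 lysine 9. Per the study's methods, KO cells were a pool of sorted cells that had received pooled Cas9 plasmids carrying different *Phf2* guides and the ZsGreen reporter, without single-cell cloning. Control cells were a sorted mock pool that received Cas9, ZsGreen and a guide without a match in the mouse genome. The 3 libraries of a group were wells of one experiment, so p-values measure the spread between wells, and a difference between the pools cannot be told apart from an effect of *Phf2*.

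In the complex, dystroglycan spans the membrane and binds laminin outside through its sugar chains. Dystrophin or its paralog utrophin joins dystroglycan to actin inside. The sarcoglycans form a membrane subcomplex beside dystroglycan, and syntrophins and dystrobrevins bind to the tail of dystrophin as adaptors for signalling proteins. Loss of dystrophin causes Duchenne muscular dystrophy, and loss of single sarcoglycans causes forms of limb-girdle muscular dystrophy.

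*Phf2* itself stood at 102, 95.5 and 105 CPM (estimated counts relative to library size, scaled by TMM) in control and at 41.1, 37.6 and 38.6 CPM in KO, 38.8% of the control mean, with adjusted p = 8.32e-09 by the quasi-likelihood test of edgeR. The matrix total was 52526109 to 67502788 estimated counts per library. Markers of myotubes were lower in KO, with 8 of 12 past the threshold of adjusted p = 0.05 in the quasi-likelihood test and 12 of 12 negative. Over all 17310 genes tested, 3.26% passed as lower. The summed level of the myotube markers was 8667 to 10215 CPM in control against 6961 to 7757 CPM in KO. None of the 10 markers of undifferentiated or cycling cells passed the threshold of the quasi-likelihood test of edgeR (2 had an unadjusted p under 0.05). Their sum was 374 to 417 CPM in control against 444 to 454 CPM in KO. Most of that difference was *Id3*, with a mean of 96.8 CPM in control and 137 CPM in KO. *Mki67*, *Top2a*, *Ccnb1*, *Cdk1*, *Ccna2* and *Pcna*, genes of cycling cells, stood at 94.4% to 103% of their control means, and *Myf5*, *Pax7* and *Id1* at 110% to 123%. Of 12 markers of other cell types, 4 were high enough to be tested, 0 passed in the same fit (1 had an unadjusted p under 0.05), and *Epcam*, *Krt5* and *Sox10* had a count of 0 in every library. The part of these shifts in the results below was not tested. In bulk RNA, fewer myotubes and less RNA per myotube cannot be told apart.

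The upstream sequences of 3 members are shown: *Dag1*, the member with the smallest p, *Sgcb*, the one with the smallest fold change in size, and *Dmd*, which names the complex. Windows of 6 members were taken from the RefSeq promoter table (GRCm38.p6). The assembled *Dag1* locus began exactly at the annotated start in all 6 libraries, and the *Sgcb* locus 53 bases upstream of it, at the first base of the gene model in the deposited tables. For *Dmd*, an assembled fragment began 60 bases after the annotated start in control replicate 2, and the nearest fragment began 397390 to 729433 bases after it in the other 5 libraries. Capitals mark the E-box CANNTG, the motif that MyoD-family factors bind, and the GC box GGGCGG on either strand. The *Dag1* and *Dmd* windows hold 250 bases and the *Sgcb* window the 197 bases that precede its gene model.
*Dag1*, chr9:108263959-108264208, minus strand: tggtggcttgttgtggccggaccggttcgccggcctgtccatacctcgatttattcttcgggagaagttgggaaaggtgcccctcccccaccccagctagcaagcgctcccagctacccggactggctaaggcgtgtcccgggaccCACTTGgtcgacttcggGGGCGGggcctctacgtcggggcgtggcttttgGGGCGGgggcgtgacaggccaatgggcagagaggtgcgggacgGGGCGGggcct
*Sgcb*, chr5:73647791-73647987, minus strand: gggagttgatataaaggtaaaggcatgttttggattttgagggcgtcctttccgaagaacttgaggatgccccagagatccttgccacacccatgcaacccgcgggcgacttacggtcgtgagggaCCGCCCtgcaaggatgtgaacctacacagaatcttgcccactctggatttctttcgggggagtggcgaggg
*Dmd*, chrX:82948620-82948869, plus strand: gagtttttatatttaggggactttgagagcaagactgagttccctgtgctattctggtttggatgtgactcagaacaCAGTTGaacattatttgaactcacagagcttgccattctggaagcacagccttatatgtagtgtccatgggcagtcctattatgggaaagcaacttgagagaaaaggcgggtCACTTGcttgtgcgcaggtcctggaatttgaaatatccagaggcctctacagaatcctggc
The *Dag1* window held 3 GC boxes, 1 E-box and 67.6% G and C, beside a median of 52.4% G and C over the 250-base windows of all promoters. A GC box stood in 32.7% and an E-box in 66.2% of the 250-base windows of 32851 promoters. The *Sgcb* window held 1 GC box, 0 E-boxes and 1 TATAAA, motifs that stood in 24.1%, 58.6% and 9.05% of promoters cut to the same length. That cut dropped the bases nearest each annotated start, whereas the *Sgcb* window runs up to its gene model, so the regions are not alike. The *Dmd* window held 2 E-boxes, 1 TATAAA and 1 CArG box, the motif of serum response factor. TATAAA stood in 12.4% and the CArG box in 1.47% of the 250-base windows, both strands searched. These matches describe letters and not bound sites. The assembled *Sgca* locus began 2838 bases downstream of its annotated start in all 6 libraries and the *Utrn* locus at -7991 to -7630 bases relative to the start in that table, so their windows are not shown. The *Sgcd* locus began at -197 bases relative to its annotated start in all 6 libraries, so most of that window lies within the transcribed locus, and it is not shown either.

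All 8 members passed the filter on low counts. *Dag1* and *Sgca* were lower in KO, no member was higher, and the other 6 did not pass the threshold of adjusted p = 0.05. Among the 17310 genes tested, 6.48% passed, 3.26% lower and 3.22% higher. The median log2 fold change of the members was -0.23, with a range from -0.71 to 0.03, beside -0.00096 over all genes. In 3 members (*Dag1*, *Sgca* and *Sntb1*) every KO library was below every control library in CPM, which held for 12.2% of all genes. In TPM, the groups of *Sntb1* overlapped. Of the members, 7 had a negative and 1 a positive fold change, and 4 had an unadjusted p under 0.05 beside 19.4% of all genes.

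**Figure D1:**
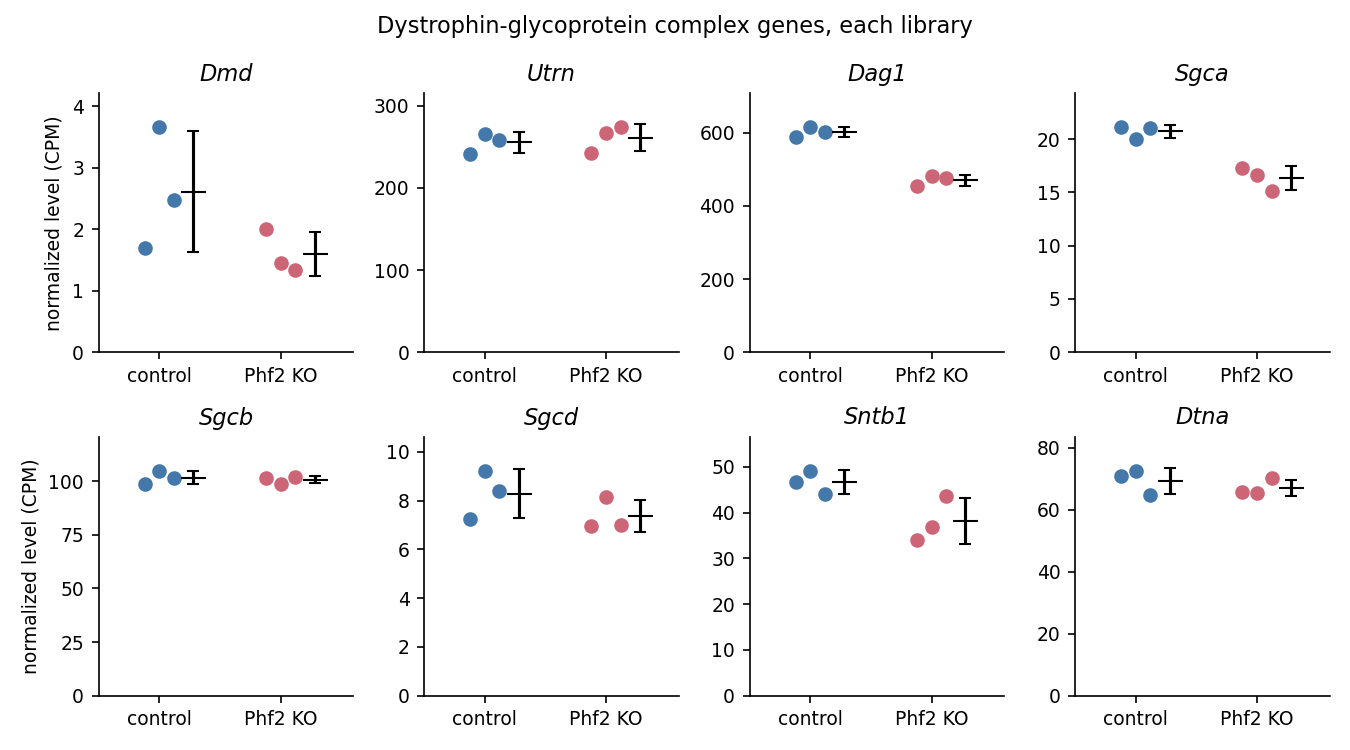
Level of each of the 8 members in CPM (y axis, from 0) in the 3 control (blue) and 3 *Phf2* KO (red) libraries, with the mean and SD in black. The groups are apart in *Dag1*, *Sgca* and, by a small margin, *Sntb1*, and overlap in the other 5 genes.

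Per length, dystroglycan was the most abundant member. In control libraries *Dag1* stood at 263 ± 6.10 TPM (a level scaled by transcript length and library; SD, n = 3), *Sgcb* at 58.3 ± 1.69, *Utrn* at 31.4 ± 5.53, *Sgca* at 30.3 ± 0.877, *Sntb1* at 20.4 ± 1.19, *Dtna* at 17.3 ± 3.88, *Sgcd* at 10.2 ± 1.03 and *Dmd* at 0.0194 ± 0.00637 TPM. The ranges of *Utrn* and *Sgca* overlapped in control, as did those of *Sntb1* and *Dtna*. The other neighbours in this order did not overlap. In KO libraries *Dag1* fell to 209 ± 9.21 TPM and remained first, and *Utrn* at 34.6 ± 5.96 TPM stood above *Sgca* at 24.4 ± 0.971 TPM without overlap. This order is that of the reference gene rows. By the highest assembled locus, *Utrn* at 43.1 to 47.8 TPM stood above *Sgca* at 29.8 to 32.4 TPM in control too, without overlap. On that reading *Dtna* at 25.2 to 29.5 TPM stood above *Sntb1* at 19.55 to 21.5 TPM in control, and *Dmd* at 1.34 to 2.06 TPM.

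*Dag1* (chr9:108204634-108263958, minus strand, mm10) encodes both the alpha and the beta subunit of dystroglycan. Its normalised level was 587, 615 and 601 CPM in control replicates 1 to 3 and 453, 481 and 477 CPM in KO replicates 1 to 3. Every KO library lay below every control library, and the gap between the groups was wider than the range within either. The log2 fold change was -0.35 ± 0.040 (SE), a KO mean of 78.2% of control, with adjusted p = 1.44e-04 by the quasi-likelihood test. It passed the threshold in 19 of 19 alternatives, where the adjusted p reached at most 0.0325. The assembled locus stood at 257, 268 and 269 TPM in control and 199, 215 and 215 TPM in KO. It rests on the same reads and was 1.0 to 1.01 times the reference row, so it is not separate evidence.

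Enzymes that build the laminin-binding sugar chain of alpha-dystroglycan did not move past the threshold. Of 18 such genes, all tested, 0 were called by the quasi-likelihood test and 0 had an unadjusted p under 0.05. Each alternative, DESeq2 and exactTest included, also called 0. Over all genes tested, 6.48% were called and 19.4% had an unadjusted p under 0.05, so 0 called of 18 is near the share of all genes. Their median log2 fold change was -0.04. The smallest p belonged to *Dolk*, a dolichol kinase, at -0.16 ± 0.095 (adjusted p = 0.400).

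Of the extracellular ligands of dystroglycan, 1 passed the test. Of 13 listed, 12 were tested, 1 was lower and 0 were higher, beside 3.26% and 3.22% of all genes tested. The median log2 fold change of the ligand genes was 0.01. *Lama5*, the laminin alpha 5 chain, stood at 379, 352 and 364 CPM in control and 331, 334 and 322 CPM in KO, a log2 fold change of -0.15 ± 0.042 with adjusted p = 0.0481. This call was lost without any 1 of the 6 libraries (adjusted p = 0.0784 to 0.170), in exactTest (0.173) and in both fits on log2 TPM (0.277 and 0.286).

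Dystrophin had the lowest counts of the members in the matrix. *Dmd* (chrX:82948870-85206141, plus strand) had 97, 213 and 144 estimated counts in control and 123, 76 and 90 in KO, or 1.70, 3.66 and 2.47 CPM against 2.00, 1.45 and 1.33 CPM. The groups overlapped, since control replicate 1 lay below KO replicate 1. The log2 fold change of -0.71 was the largest of the members in size, with a 95% interval from -1.34 to -0.09 and adjusted p = 0.191. Without control replicate 2, the highest library, it was -0.39 (adjusted p = 0.616).

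In the TPM tables of single libraries, the reference row of *Dmd* lay far below the assembled fragments. This row held 0.00993 to 0.0261 TPM. The same tables listed 7 to 15 assembled fragments on its strand within the gene. The most abundant fragment stood at 1.34, 2.06 and 1.92 TPM in control and 1.14, 1.37 and 1.01 TPM in KO, 78.9 to 135 times the reference row. KO replicate 2 lay above control replicate 1 there as well. Fragments differed between libraries in position, so these values describe the most abundant piece and not 1 transcript.

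Utrophin, the autosomal paralog of dystrophin that binds the same partners, did not pass the test. *Utrn* (chr10:12382188-12869365, minus strand) stood at 242, 266 and 258 CPM in control and 243, 267 and 274 CPM in KO. The groups overlapped, with the lowest value in control replicate 1 and the highest in KO replicate 3. The log2 fold change was 0.03, with a 95% interval from -0.08 to 0.15 and adjusted p = 0.815, which bounds the change these libraries allow. Its reference row gave 25.1 to 39.3 TPM and its assembled locus 43.0 to 50.7 TPM, with overlap of the groups in both. *Drp2*, another relative of dystrophin, also overlapped, at 39.4 to 41.1 CPM in control and 35.8 to 40.6 CPM in KO (-0.05, adjusted p = 0.775).

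**Figure D2:**
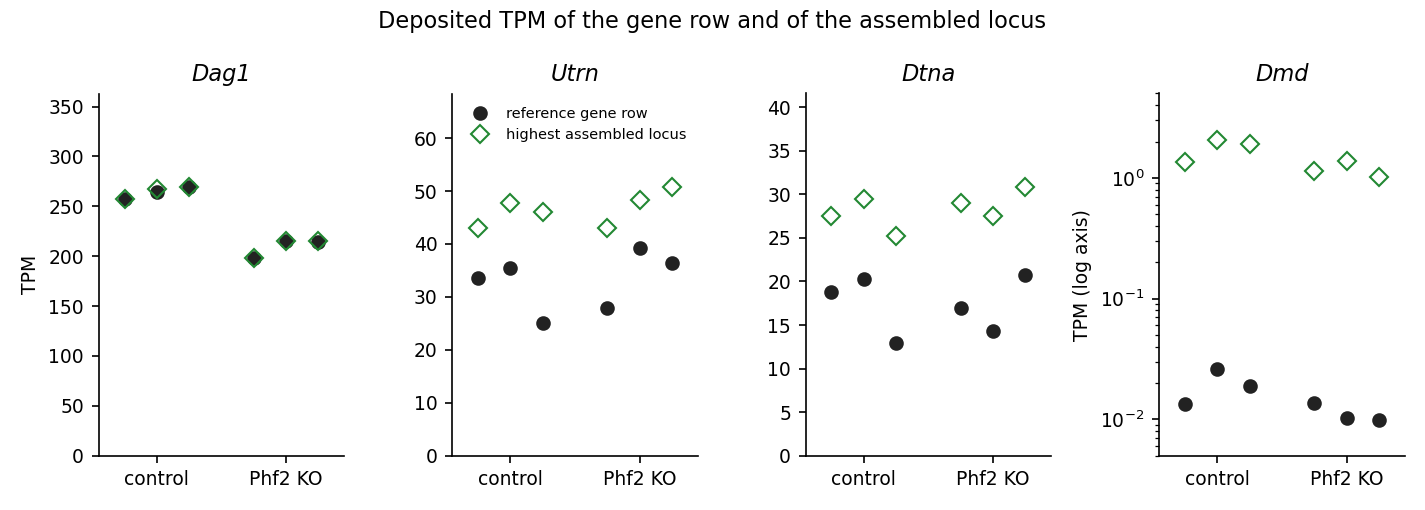
TPM of the reference gene row (black circles) and of the highest assembled locus on the same strand (green diamonds) in each library, control on the left and *Phf2* KO on the right of each panel, with a log axis for *Dmd* alone. The readings coincide for *Dag1*, the locus is above the row for *Utrn* and *Dtna*, and for *Dmd* it is 78.9 to 135 times the row.

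Among sarcoglycans, *Sgca* was lower in KO and *Sgcb* and *Sgcd* did not pass the test. *Sgca* (chr11:94962791-94976327, minus strand), the alpha subunit found in striated muscle, stood at 21.1, 20.1 and 21.04 CPM in control and 17.3, 16.6 and 15.1 CPM in KO, with no overlap. The log2 fold change was -0.35 ± 0.085, a KO mean of 78.7% of control, with adjusted p = 0.0265. The call held in 12 of 19 alternatives. It was lost without control replicate 1, 2 or 3 and without KO replicate 2 or 3 (adjusted p = 0.0630 to 0.103), and in both fits on log2 TPM (0.0782 and 0.0796). Its assembled locus, which rests on the same reads, had 32.4, 29.8 and 31.3 TPM in control and 26.1, 24.6 and 23.3 TPM in KO, without overlap.

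*Sgcb* (chr5:73632749-73647790, minus strand), the beta subunit, had the smallest fold change of the members in size. It stood at 98.8, 105 and 101 CPM in control and 101, 98.8 and 102 CPM in KO, with a log2 fold change of -0.01 and a 95% interval from -0.11 to 0.08 (adjusted p = 0.917). *Sgcd* (chr11:46896253-47988969, minus strand), the delta subunit, stood at 7.24, 9.22 and 8.40 CPM in control and 6.94, 8.13 and 7.004 CPM in KO. These ranges overlapped, and the log2 fold change of -0.17 had an interval from -0.46 to 0.12 (adjusted p = 0.558). The *Sgcd* locus assembled in control replicate 2 stood at 18.4 TPM, against 9.55 to 11.3 TPM in the other 5 libraries, while its reference row did not stand apart there at 9.48 TPM.

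Outside the member list, *Sgce*, the epsilon subunit and closest paralog of *Sgca*, rose from 49.1, 50.9 and 55.4 CPM to 61.2, 59.8 and 59.6 CPM (0.22 ± 0.057, adjusted p = 0.0362).

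The *Sgce* call was lost without control replicate 1 or 2 and without any 1 KO library (adjusted p = 0.0919 to 0.151). The length correction also took it to 0.0514, and it did not pass in the TPM fits. *Sspn*, sarcospan, which binds the sarcoglycans, was higher in 3 of 3 KO libraries without overlap (62.6 to 63.8 CPM in control, 69.4 to 70.3 CPM in KO) but did not pass (0.14, adjusted p = 0.0920). *Sgcz* had a count of 0 in every library.

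**Figure D3:**
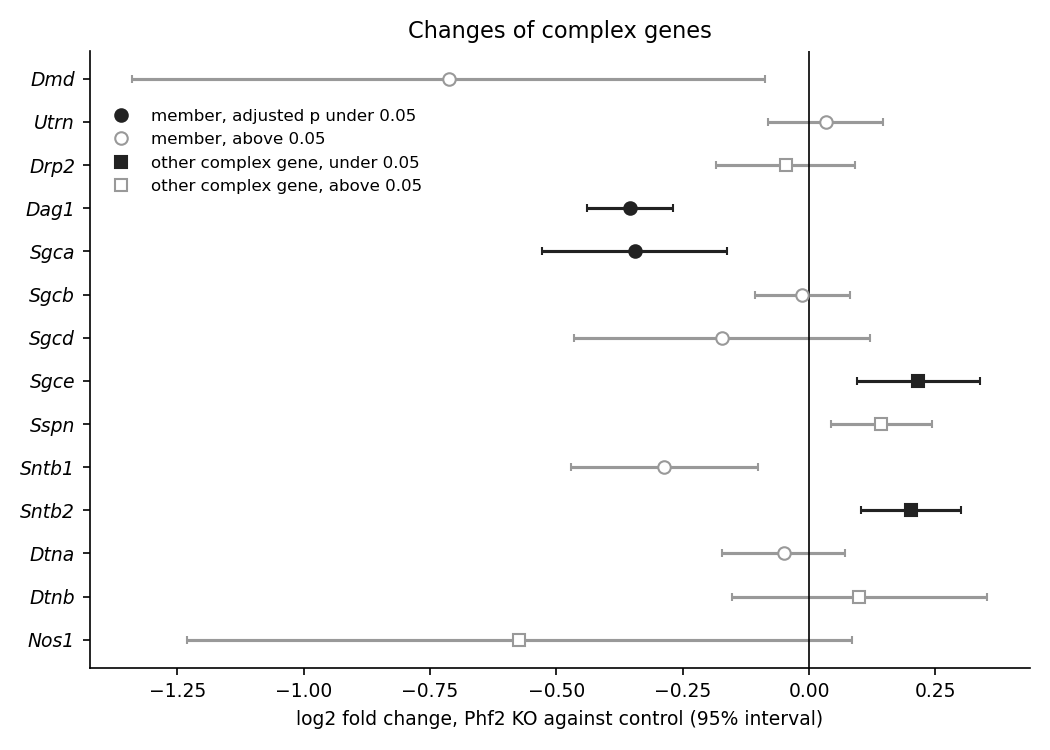
Log2 fold change of KO against control (x axis) with its 95% interval for the complex genes reported, members as circles and other complex genes as squares, filled where the adjusted p was under 0.05. *Dag1* and *Sgca* lie to the left and *Sgce* and *Sntb2* to the right of 0, and the widest intervals are those of *Dmd* and *Nos1*.

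Of the syntrophins, PDZ-domain adaptors on the dystrophin tail, *Sntb2* was higher and *Sntb1* did not pass. *Sntb1* (chr15:55636388-55906949, minus strand), the beta 1 syntrophin, stood at 46.7, 49.1 and 44.0 CPM in control and 34.0, 36.9 and 43.7 CPM in KO. In CPM, KO replicate 3 nearly reached control replicate 3, and the other 2 KO libraries lay lower. In TPM of the reference row the groups overlapped, with KO replicate 3 at 19.8 and control replicate 3 at 19.1. The assembled locus overlapped too, at 19.8 and 19.55 TPM in these libraries. The log2 fold change was -0.29 ± 0.085, with adjusted p = 0.0692. It passed the threshold in DESeq2 (0.0180) and without KO replicate 3 (-0.40, 0.0132), and in none of the other 17 alternatives.

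*Sntb2*, the beta 2 form, rose from 99.9, 94.0 and 103 CPM to 112, 116 and 114 CPM (0.20 ± 0.046, adjusted p = 0.0172). *Sntb2* was lost without control replicate 2 and without KO replicate 2 or 3 (0.0509 to 0.112), and in the TPM fits. *Sntg1* and *Sntg2* had a count of 0 in every library of the matrix. *Nos1*, neuronal nitric oxide synthase, which docks to the complex, stood at 5.37, 12.7 and 7.61 CPM in control and 5.93, 5.66 and 5.67 CPM in KO (-0.57, interval from -1.23 to 0.08, adjusted p = 0.328). Control replicate 2 was its highest library, and without it the log2 fold change was -0.17. Without control replicate 1 it was -0.82 (adjusted p = 0.0302).

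The dystrobrevins, relatives of dystrophin that bind both it and the syntrophins, did not pass. *Dtna*, alpha dystrobrevin, stood at 71.1, 72.6 and 64.7 CPM in control and 65.7, 65.4 and 70.2 CPM in KO (-0.05, interval from -0.17 to 0.07, adjusted p = 0.712). *Dtnb*, beta dystrobrevin, stood at 8.26, 9.51 and 8.35 CPM in control and 9.15, 9.77 and 9.07 CPM in KO (0.10, interval from -0.15 to 0.35, adjusted p = 0.728). Both overlapped. The assembled *Dtna* locus stood at 25.2 to 29.5 TPM in control and 27.6 to 30.8 TPM in KO, 1.45 to 1.95 times its reference row.

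Together, the 11 other subunits and paralogs gave 8 tested genes, of which 2 passed as higher and 2 as lower. Over all genes tested, 3.22% passed as higher and 3.26% as lower. Of the 8, 5 had an unadjusted p under 0.05 in the quasi-likelihood test, beside 19.4% of all genes. The median log2 fold change of these genes was 0.03. Their summed level was 360 to 367 CPM in control and 373 to 377 CPM in KO, while that of the 8 members was 1076 to 1141 CPM in control and 923 to 989.7 CPM in KO. Most of the sum over the members is *Dag1* and *Utrn*. The mean of *Dag1* was 601 CPM in control and 470 CPM in KO, and that of *Utrn* 255 and 261 CPM. The lower sum of the members thus mostly repeats the result of *Dag1*.

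**Figure D4:**
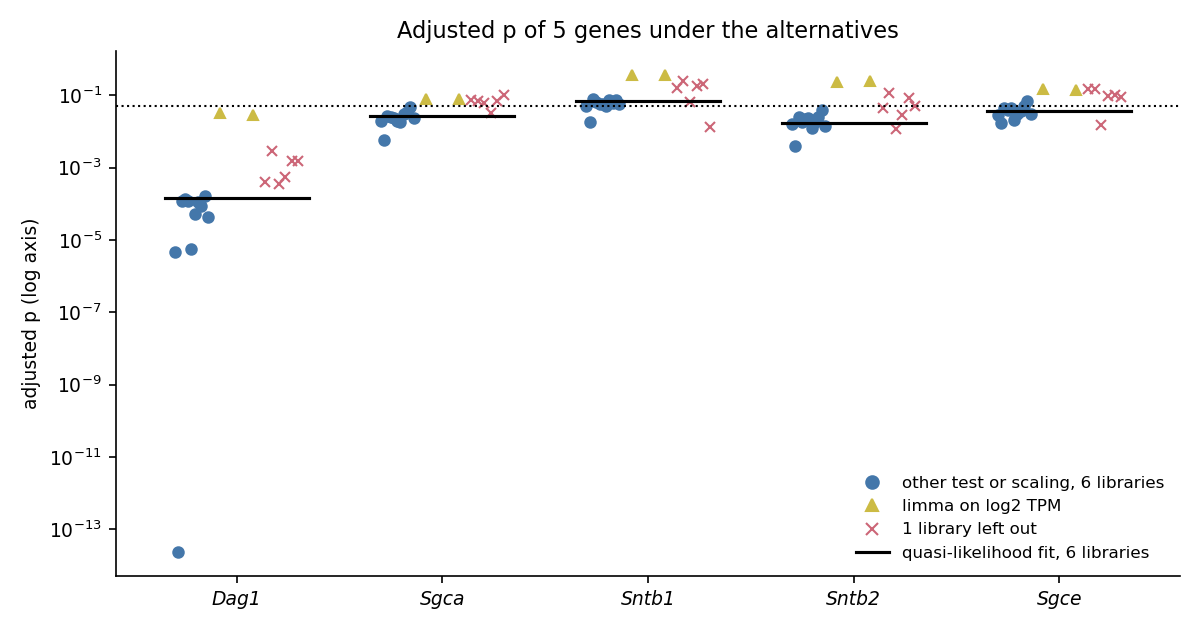
Adjusted p (log axis) of 5 complex genes under the alternatives: other tests or scalings of the 6 libraries as circles, limma on log2 TPM as triangles, fits without 1 library as crosses, and the value reported as a black line, with the threshold dotted. *Dag1* stays under 0.05 throughout, and the other 4 genes have values on both sides of it.

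Pairs of paralogs were compared as ratios of TPM within each library. The ratio of *Sgce* to *Sgca* was 1.97, 2.17 and 2.33 in control and 3.04, 3.07 and 3.34 in KO. The ratio of *Sntb2* to *Sntb1* was 1.06, 0.949 and 1.18 in control and 1.76, 1.55 and 1.28 in KO. Both were higher in 3 of 3 KO libraries without overlap, by 0.55 and 0.52 on the log2 scale. Each gave p = 0.1 in a two-sided exact permutation test, the smallest that 3 libraries against 3 allow, and 0.2 after Benjamini-Hochberg adjustment over 4 ratios, so this test could not reach 0.05.

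The ratio of *Dtnb* to *Dtna* overlapped between groups, at 0.345 to 0.492 in control and 0.294 to 0.620 in KO (exact permutation p = 0.9, adjusted 0.9). The ratio of *Utrn* to *Dmd*, with 0.1 TPM added to both, differed by 0.24 on the log2 scale (exact permutation p = 0.4, adjusted 0.533). It rests on the added 0.1 TPM, since every *Dmd* reference row lay under that value. From counts divided by exon length, with nothing added, the same ratio was 198, 101 and 145 in control and 169, 257 and 286 in KO, a log2 difference of 0.70 with overlap (exact permutation p = 0.2). From such counts, the ratio of *Sgce* to *Sgca* was 0.380 to 0.431 in control and 0.579 to 0.645 in KO, so the order of the pair depends on the length used while the groups stay apart.

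**Figure D5:**
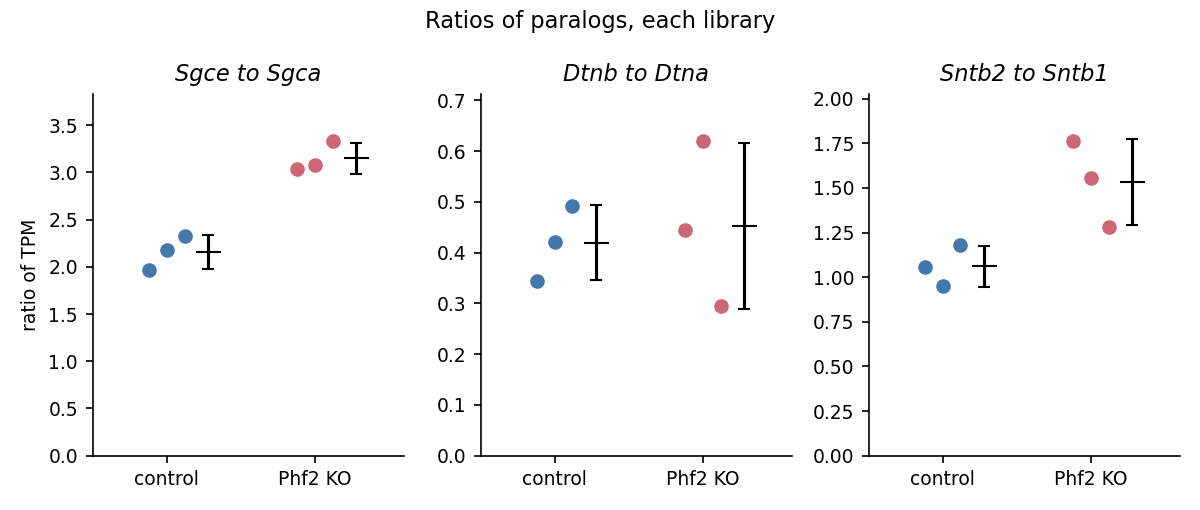
Ratio of TPM (y axis, from 0) for 3 pairs of paralogs in each control (blue) and *Phf2* KO (red) library, with the mean and SD in black. *Sgce* to *Sgca* and *Sntb2* to *Sntb1* are higher in every KO library than in any control library, and *Dtnb* to *Dtna* overlaps.

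The linker list held proteins that link the complex to the cytoskeleton and the membrane, and others such as *Scn4a*, *Grb2*, *Kif5b* and *Mast2*. It gave 17 tested genes of 19 listed. Of these, 2 were higher and 4 lower, beside 3.22% and 3.26% of all genes tested. The median log2 fold change of the linker genes was -0.01. *Cav3*, the muscle caveolin, which binds beta-dystroglycan, fell from 11.1, 14.0 and 10.5 CPM to 5.54, 3.96 and 4.08 CPM (-1.39 ± 0.16, adjusted p = 1.81e-04) and passed in 19 of 19 alternatives. *Scn4a*, the muscle sodium channel, fell from 18.6, 17.2 and 14.4 CPM to 8.24, 10.5 and 10.96 CPM (-0.75 ± 0.13, adjusted p = 0.00291). The smaller falls were those of *Plec*, plectin, at -0.21 ± 0.036 (adjusted p = 0.00257) and *Flnc*, filamin C, at -0.19 ± 0.037 (adjusted p = 0.00877). *Actb*, cytoplasmic beta actin, rose from 2806, 2740 and 2717 CPM to 3166, 3131 and 2996 CPM (0.17 ± 0.033, adjusted p = 0.00671). Of the 6 called linker genes, *Cav3* alone passed in the TPM fits, and *Flnc* and *Actb* did not pass in exactTest (0.0610 and 0.0972). *Flnc* and *Actb* were lost without control replicate 2 (0.0719 and 0.0571) and without KO replicate 2 (0.0600 and 0.0728).

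Genes most like 3 members across the 6 libraries were named by Pearson's r of log2 CPM among genes of at least 5 CPM on average. These values describe 6 points that share their groups and depth. *Dag1* was most like *C1qtnf3* (r = 0.998), *Habp4* (0.996) and *Jph1* (0.996), of which *C1qtnf3* (-0.43, adjusted p = 6.97e-05) and *Jph1*, junctophilin 1 (-0.50, adjusted p = 2.63e-04), were lower in KO. *Sgca* was most like *Psma2* (0.991), followed among the genes reported by *Tpgs1* (0.988), and *Dmd* was most like *Pcyt1a* (0.992), *Sh2b2* (0.985) and *mt-Nd2* (0.984). None of the 3 genes most like *Dmd* passed the threshold (adjusted p = 0.221 to 0.661).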

How the data were processed

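The authors isolated poly(A) RNA, built stranded libraries, mapped them with HISAT2 on mm10 and quantified genes with StringTie. Tool versions are not given in the sources used here. The matrix that the authors deposited gives estimated counts, rounded values equal to covered bases divided by about 75.0, which are not tallies of reads. The reads were longer than that and paired, so each sequenced fragment can give several such counts. A fit on counts divided by 4 was among the alternatives. Each library also has a deposited table of TPM, a signal scaled by the authors to that library's total (reference rows sum to 976993 to 984559), and coverage, used only for the unit of the counts. These tables list assembled loci beside reference genes.

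The counts went into edgeR 4.0.16 under R 4.3.3: filterByExpr (minimum count 10), TMM, robust quasi-likelihood test, and Benjamini-Hochberg adjustment over 17310 genes, with a threshold of 0.05. The common biological coefficient of variation was 0.135. All adjusted p-values of genes come from this fit unless another test is named. DESeq2 1.42.0, limma 3.58.1 and exactTest of edgeR were alternatives, with other scalings and filters, a length correction, limma on log2(TPM + 1) and log2(TPM + 0.1), and omission of each library. The script was tested on simulated data. The labels give both groups replicates 1 to 3. Deviations from the group mean correlated at 0.235, 0.258 and 0.168 between same-numbered libraries over 10923 genes, and at most at -0.0019 between others. Deviations within a group cancel out, so positive same-numbered values force the others to be negative on balance. The others are thus not separate support. From the same-numbered values, the numbers were taken to pair the libraries, and a replicate block was an alternative. The main fit and the exact permutation tests left this pairing out.

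Members and gene lists were chosen with earlier results of these data known. Named were *Phf2*, the 8 members, each other complex gene tested, and of each further list at most 5 genes past the threshold with the largest change or, with none past it, the 2 smallest p, and the 3 genes most like *Dmd*, *Dag1* and *Sgca*. Some genes that this rule names are not reported here. Markers were named where they had a count of 0. Gene positions are those in the deposited tables.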

Additional observations from a re-analysis of the deposited data

How the results depend on the processing

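*Dag1*, *Cav3* and *Phf2* kept direction and call in all 19 alternatives. The 1122 genes past the threshold became 158 and 178 in limma on log2(TPM + 1) and log2(TPM + 0.1), and 478 to 1068 with 1 library left out, the lowest without control replicate 2. The 2 members called became 1 in both TPM fits and 1 to 2 with 1 library left out. The 4 other complex genes became 2 with the length correction, 2 with the replicate block and length correction together, 0 in both TPM fits, and 0 to 4 with 1 library left out, with 0 without control replicate 2, KO replicate 2 or KO replicate 3. The 1 ligand gene became 0 in exactTest and both TPM fits and 0 to 0 with 1 library left out. The 6 linker genes became 3 in exactTest, 1 in both TPM fits and 3 to 7 with 1 library left out, the lowest without KO replicate 2. The replicate block gave 1316 calls over all genes, took the 4 other complex genes to 3 and changed no call of a gene named here.

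Direction turned only in genes that did not pass. *Utrn* was -0.0087 without control replicate 1 and -0.0054 without KO replicate 3, in a range of -0.0087 to 0.083 with 1 library left out. *Sgcb* was 0.00020 with the length correction, 0.00058 with the block added, 0.02 (0.0190 and 0.0193) in the TPM fits and 0.0094 without control replicate 2, in a range of -0.037 to 0.0094. *Dtna* was 0.0077 and 0.0088 in the TPM fits, and *Drp2* 0.0059 without KO replicate 1, in a range of -0.085 to 0.0059. The log2 difference of the *Dtnb* to *Dtna* ratio ranged from -0.20 to 0.34 with 1 library left out, at -0.07 without control replicate 1 and -0.20 without KO replicate 2. The cause of these shifts was not tested. The SE of *Dmd* was 0.29, so a change of the size of *Dag1* was not detectable at its depth.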
